A study of Mus musculus with 16 samples.

Results

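The genes described here encode the signalling chain that runs from the phosphatase Shp2 through Ras to the kinase ERK, read in dorsal skin of 15-day mice. The chain was defined by 8 gene symbols, Ptpn11, Gab1, Grb2, Sos1, Braf, Map2k1, Map2k2 and Mapk3, and every probe with one of these symbols was taken. Of the 25697 probes in the table, 10 carried such a symbol, and they named 6 of the 8 genes, among 16593 genes named in the whole table. Mapk3 and Braf matched no named probe and are not analysed here. Of the 10 probes 8 passed the filter on low signals (detection p-value below 0.05 on at least 4 of 16 arrays), so 5 genes were tested: Ptpn11, Gab1, Grb2, Map2k1 and Map2k2.

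All mice came from a C57/BL6;129Ola mixed strain, and they made up 4 groups of 4 arrays. Control mice are labelled only as control, and the labels do not say whether they carried the Cre driver or a floxed allele. Shp2lof mice carried Krox20-cre and the floxed Shp2 allele (Shp2fl, copies not stated), Mek1gof mice carried Krox20-cre and 1 copy of the Mek1 gain-of-function allele (Mek1fstop/+), and Double mice carried both alleles with the driver. Krox20-cre recombines only in cells that have used the Krox20 (Egr2) promoter, which in skin is known for Schwann cells and part of the hair follicle, while RNA was taken from whole dorsal skin. Each Illumina bead array slide (2 in all) held 2 arrays of every group, with replicates 1 and 2 on slide 1 and replicates 3 and 4 on slide 2. Each group kept the same positions on both slides, so position and genotype cannot be told apart.

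In this pathway an activated receptor tyrosine kinase recruits adaptors such as Grb2 and docking proteins such as Gab1, which bring in the phosphatase Shp2 (encoded by Ptpn11) and the Ras exchange factor Sos1. Ras loaded with GTP activates Raf kinases, Raf phosphorylates Mek1 and Mek2 (Map2k1 and Map2k2), and these phosphorylate ERK. The pathway is controlled mainly by phosphorylation and by who binds whom, which an expression array does not measure. In skin it drives keratinocyte proliferation, and in Schwann cells it governs the switch between myelinating and dividing states.

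Between 13022 and 13959 probes were detected per array. All 5 keratinocyte markers, all 5 fibroblast markers and all 8 skeletal muscle markers on fixed lists were detected on all 16 arrays, so the tissue carried skin transcripts and also muscle. In Shp2lof 4, Mek1gof 2 and Double 4 the levels of Xist and the Y-linked Eif2s3y were not those of 1 sex. Shp2lof 4, for one, read 9.12 for Xist and 8.01 for Eif2s3y on the log2 scale. Results were therefore also computed without these 3 arrays. Eif2s3y read 10.1, 4.52, 10.9 and 4.45 on the control arrays. It read 10.4, 10.9 and 10.6 on Shp2lof 1, 2 and 3, and 4.64, 4.31, 10.6 and 4.39 on the Double arrays. Sex-linked levels were thus not balanced between the groups, also without the 3 arrays. The part of sex in the differences was not tested. The labels do not say if the 4 arrays of a group stand for 4 animals. Control and Double each held arrays with male and arrays with female levels, so neither came from 1 animal alone. The same holds for Mek1gof, where Eif2s3y read 5.10 on array 1 and 10.6 and 10.8 on arrays 3 and 4. Every p-value covers the spread between these arrays alone, which may be technical in part.

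None of the 5 tested cascade genes passed the threshold in any comparison of the 4 groups (limma, adjusted p below 0.05 by Benjamini-Hochberg across the 10232 genes tested). In Shp2lof against control 0 of the 5 passed, where 2.55% of all genes did. In Mek1gof against control 0 of 5 passed against 0.508% of all genes, and in Double against control 0 of 5 against 3.88%. These shares are small, so a count of 0 of 5 lies near the background. At the level of probes 0 of 8 passed in each, beside 2.04%, 0.403% and 3.37% of all 14631 detected probes. At an unadjusted p below 0.05 the members again numbered 0 of 5 in each of these comparisons, where the shares over all genes were 15.7%, 9.54% and 20.8%. The median log2 difference of the 5 genes from control was -0.05 for Shp2lof, -0.14 for Mek1gof and -0.05 for Double, beside 0.02, 0.02 and 0.03 over all genes tested.

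Setting Double skin against each single mutant asks what the second allele adds, and gave the same count. Double against Shp2lof had 0 of 5 members past the threshold (0.968% of all genes), and Double against Mek1gof 0 of 5 (0.283%). The factorial interaction, which is the Shp2lof difference in the presence of the Mek1gof allele minus that in its absence, had 0 of 5 (0.088%). Of the 8 member probes 0 passed in these 3, where 0.745%, 0.191% and 0.0615% of all detected probes did. One F test over the 4 group means per gene also passed 0 of 5 (4.42% of all genes), with limma's adjusted p running from 0.543 for Gab1 to 0.96 for Grb2. These counts leave room for differences within the intervals given below, and in whole skin fewer cells of a type and less RNA per cell cannot be told apart.

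**Figure D1:**
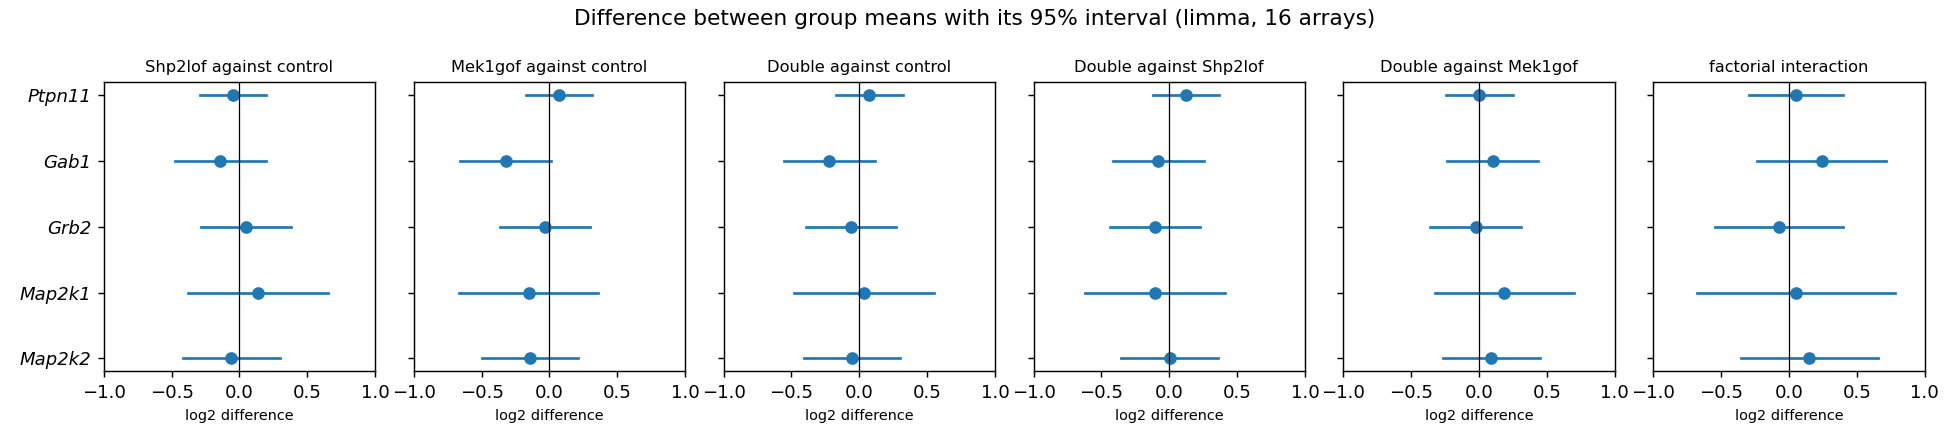
Differences between group means on the log2 scale (x axis) for the 5 tested cascade genes (rows), with points for the estimate and lines for the 95% interval from limma on 16 arrays; each panel is a comparison. All 30 intervals cover 0, and that of Gab1 in Mek1gof against control, from -0.66 to 0.01, lies furthest to one side.

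Ptpn11, the gene for Shp2 itself, was the gene that the Shp2lof allele targets, so its level was read first. Its 4 probes are ILMN_3001598, ILMN_2743723 and ILMN_1245874, each detected on all 16 arrays, and ILMN_2681329, detected on none. The brightest, ILMN_3001598, had log2 levels of 12.74 to 12.96 over the control arrays, 12.74 to 12.90 over the Shp2lof arrays, 12.82 to 13.13 over the Mek1gof arrays and 12.85 to 13.15 over the Double arrays. The 4 ranges overlapped, and the lowest control and the lowest Shp2lof array read the same.

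For this probe the interval of the Shp2lof minus control difference reached from -0.29 to 0.20, a change of its level in whole skin of -18.3% to 14.7% from control. These percentages do not bound the change of the Ptpn11 transcript. The intervals of the other detected probes reached -32.4% (ILMN_2743723) and -25.4% (ILMN_1245874). In Double against control the estimate for this probe was 0.07 and its interval ran from -0.17 to 0.32, or -11.1% to 24.8%. The other detected probes had Double estimates below 0. ILMN_2743723 gave -0.17 (interval -0.48 to 0.14, adjusted p = 0.557, limma) and ILMN_1245874 -0.13 (interval -0.38 to 0.13, adjusted p = 0.607). Where the probes lie relative to the floxed exons is not known from the files, and a probe outside the deleted part would not report the deletion.

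The other detected Ptpn11 probes read somewhat lower in Shp2lof skin without passing the threshold. ILMN_2743723 gave 8.63, 8.26, 8.34 and 8.43 on the control arrays, 8.34, 7.99, 8.23 and 8.07 on the Shp2lof arrays, 8.58, 8.40, 8.20 and 8.01 on the Mek1gof arrays and 8.43, 8.33, 8.24 and 7.98 on the Double arrays. Control and Shp2lof overlapped only between 8.26 and 8.34. The difference was -0.26 (interval -0.57 to 0.05, adjusted p = 0.441 over all 14631 detected probes, limma), with -0.28 on slide 1 and -0.24 on slide 2.

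ILMN_1245874 gave 8.21, 7.88, 7.84 and 7.96 on the control arrays, 7.92, 7.71, 7.90 and 7.69 on the Shp2lof arrays, 8.21, 8.13, 8.11 and 7.89 on the Mek1gof arrays and 7.87, 7.77, 7.92 and 7.83 on the Double arrays. Here the Double arrays lay low and close together, and the Mek1gof arrays high. Its Shp2lof minus control difference was -0.17 (interval -0.42 to 0.09, adjusted p = 0.567), with -0.23 and -0.10 on the slides, and its Double minus Mek1gof difference was -0.24 (adjusted p = 0.564). These 2 probes varied together over the arrays (Pearson r = 0.68, Spearman rho = 0.66 over 16 arrays after each slide's mean was subtracted), and each followed ILMN_3001598 less closely (r = 0.47 and 0.43). The probes of 1 gene share the arrays and their normalization, so these correlations are descriptions and carry no test.

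**Figure D2:**
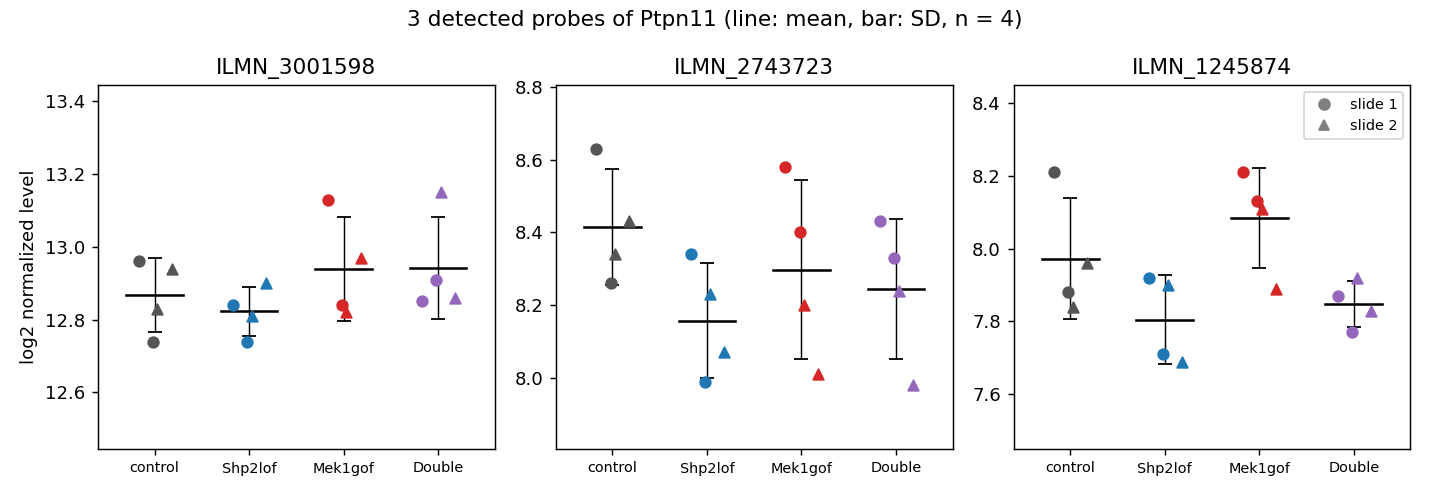
Log2 normalized levels (y axis, each panel 1 log2 unit high) of the 3 detected Ptpn11 probes in the 4 groups, with circles for slide 1, triangles for slide 2, a line for the mean and a bar for the SD of 4 arrays. In the panels of ILMN_2743723 and ILMN_1245874 the Shp2lof mean lies below the control mean, by 0.26 and 0.17, and in that of ILMN_3001598 by 0.05.

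Gab1 encodes the docking protein that binds Shp2 once receptors have phosphorylated it. Its probe, ILMN_1222009, read 11.15, 11.08, 10.94 and 11.08 on the control arrays, 11.13, 10.90, 10.89 and 10.75 on the Shp2lof arrays, 11.23, 10.84, 10.53 and 10.36 on the Mek1gof arrays and 10.81, 11.04, 10.75 and 10.76 on the Double arrays. The Mek1gof arrays spread most widely and held both the highest and the lowest value of all 16.

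Gab1 was the member with the lowest p in a comparison with control. The Mek1gof minus control difference was -0.32 ± 0.16 (SE, n = 4 against 4 arrays, unadjusted p = 0.0594, adjusted p = 0.548, limma). The difference lay almost wholly on slide 2, with -0.57 there and -0.08 on slide 1. Slide went with the sex-linked levels in the Mek1gof arrays, and the part of sex was not tested. With slide as a block the interval of the same difference was -0.61 to -0.04, with an adjusted p of 0.388. The Shp2lof and Double differences from control were -0.14 and -0.22 (adjusted p = 0.726 and 0.453), so control had the highest mean, 11.06, and Mek1gof the lowest, 10.74. Neighbouring groups in that order, control, Shp2lof (10.92), Double (10.84) and Mek1gof, overlapped in their arrays.

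Grb2 encodes the adaptor that links receptors and Gab1 to Sos1. Its probe, ILMN_2995537, read 5.67, 5.63, 6.33 and 6.09 on the control arrays, 5.79, 6.09, 5.96 and 6.06 on the Shp2lof arrays, 5.58, 6.04, 6.01 and 5.96 on the Mek1gof arrays and 5.86, 5.78, 6.04 and 5.81 on the Double arrays. The 4 means lay within 0.11 of each other, from 5.87 in Double to 5.98 in Shp2lof, and the control arrays alone spanned more than that. Only 4.8% of genes had group means closer together. The signs of its differences from control were opposite on the slides, positive on slide 1 (0.29, 0.16 and 0.17 for Shp2lof, Mek1gof and Double) and negative on slide 2 (-0.20, -0.23 and -0.28). The control mean was 5.65 on slide 1 and 6.21 on slide 2, and this difference between slides was not tested.

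Sos1 encodes the exchange factor that loads Ras with GTP. Its probe, ILMN_2737338, was detected on 0 of 16 arrays, with detection p-values from 0.0714 to 0.92 and deposited signals between 49.4 and 71.4. The fourth Ptpn11 probe, ILMN_2681329, was in the same position, with detection p-values from 0.157 to 0.986 and signals between 49.4 and 71.3. Both probes were not well above background in every group, so no difference is given for them.

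Map2k1 encodes Mek1, the kinase whose gain-of-function allele the Mek1gof and Double mice carried. Its probe, ILMN_2714534, lay near the lower end of the measured range, with deposited signals of 103.7 to 127.4 on slide 1 and 136.2 to 230.2 on slide 2. It read 6.26, 5.97, 6.90 and 7.12 on the control arrays, 6.35, 6.62, 7.01 and 6.82 on the Shp2lof arrays, 6.24, 5.95, 6.71 and 6.74 on the Mek1gof arrays and 6.26, 6.44, 6.88 and 6.81 on the Double arrays (log2 levels, replicates 1 to 4). The means of the control, Shp2lof, Mek1gof and Double arrays were 6.56, 6.70, 6.41 and 6.60, with SDs of 0.54, 0.28, 0.38 and 0.30 (n = 4). All 4 groups overlapped, and the 2 groups with the activated allele did not stand above the others.

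Between Mek1gof and control skin Map2k1 differed by -0.15 with an interval from -0.67 to 0.36, or -37.1% to 28.5%. With slide as a block the estimate stayed the same by construction and the interval narrowed to -0.44 to 0.13, or -26.1% to 9.52%. Double minus control was 0.03 with an interval from -0.48 to 0.55 (-28.4% to 46.3%), which narrowed to -0.25 to 0.32 (-15.9% to 24.7%) with the block. Without control 4 the Mek1gof difference changed sign, to 0.03, and without control 2 it was -0.35. The sources used here do not say whether the probe detects the transcript of the allele. Because an offset was added to every signal, differences of a gene this close to the background are shrunk towards 0, and these percentages do not bound the change of the transcript.

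Map2k2 encodes Mek2, the second ERK kinase, and no allele of the study targets it. Its brighter probe, ILMN_1258682, read 10.21, 10.36, 10.40 and 9.71 on the control arrays, 9.97, 10.35, 10.23 and 9.90 on the Shp2lof arrays, 10.03, 10.03, 9.99 and 10.06 on the Mek1gof arrays and 9.95, 9.79, 10.36 and 10.38 on the Double arrays. The Mek1gof arrays lay almost on top of each other (SD 0.0281), whereas the other groups had SDs between 0.212 and 0.321, and the range of each of these enclosed all Mek1gof arrays.

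Both Map2k2 probes read higher on slide 2 than on slide 1 in Double skin. On slide 1 the Double minus control difference was -0.42 for ILMN_1258682 and -0.17 for ILMN_2884050, and on slide 2 it was 0.31 and 0.72. Over both slides the 2 probes gave -0.05 (adjusted p = 0.894 over genes) and 0.28 (adjusted p = 0.412 over detected probes), while the signs were opposite on the slides, and this contrast between slides was not tested. ILMN_2884050 lay just above background, with detection p-values up to 0.0464.

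**Figure D3:**
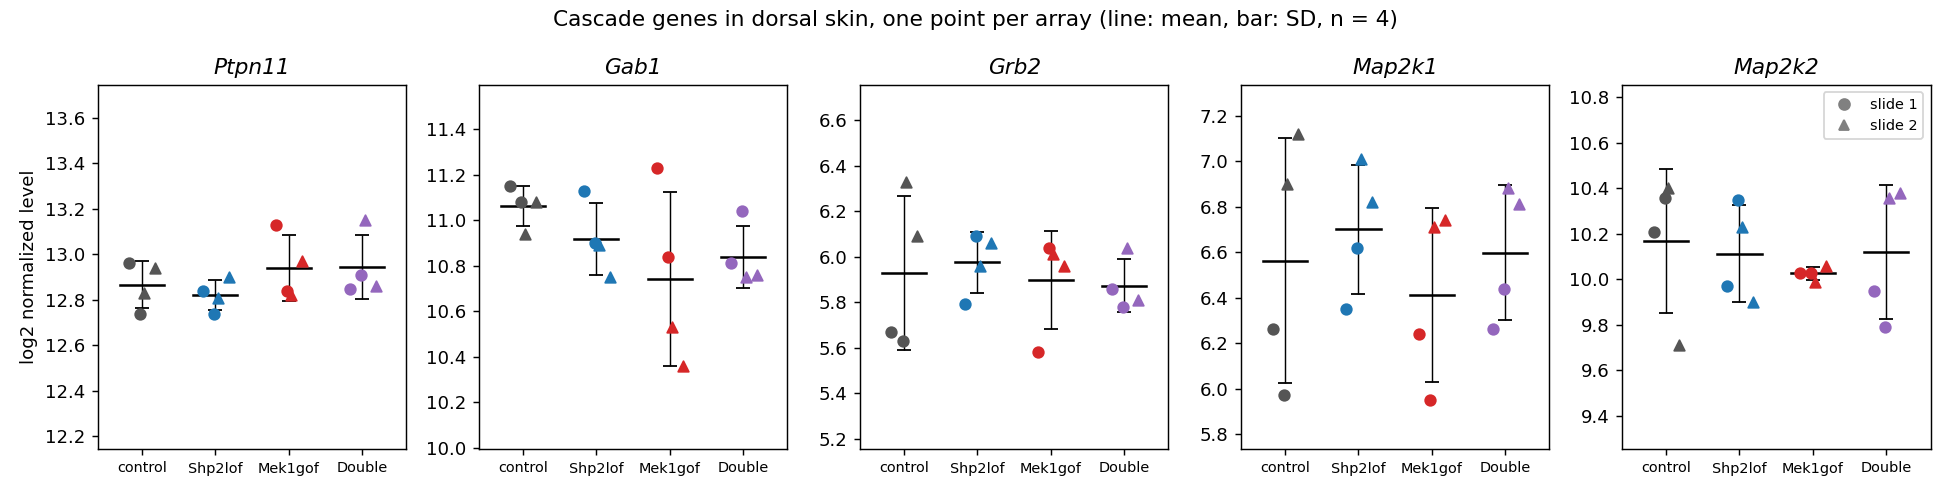
Log2 normalized levels (y axis, each panel 1.6 log2 units high) of the 5 tested genes in control, Shp2lof, Mek1gof and Double skin, with circles for slide 1, triangles for slide 2, a line for the mean and a bar for the SD of 4 arrays. Within each gene the groups overlap, and in the Map2k1 panel the triangles lie above the circles in every group.

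Slide separated Map2k1 where genotype did not. Its levels on the 8 arrays of slide 1 were between 5.95 and 6.62, and on the 8 arrays of slide 2 between 6.71 and 7.12, with no overlap. In a fit with group and slide, slide 2 exceeded slide 1 by 0.61 (interval 0.41 to 0.81, 1.53-fold, adjusted p = 0.0159, limma), in the same direction in 4 of 4 groups. Among the members 1 of 5 passed this test, where 0.938% of all genes did.

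Of the variation of Map2k1 over the 16 arrays 75.5% lay between the slides and 8.69% between the groups, and of the 10232 genes tested 2 had a larger share between slides. Over all genes the median shares were 5.5% between slides and 26.5% between groups. With Grb2 and Gab1, 3 of 5 members had an unadjusted p below 0.05 for slide, against 16.5% of all genes. Grb2 was higher on slide 2 by 0.23 (adjusted p = 0.256) and Gab1 lower by 0.27 (adjusted p = 0.159), with 34.6% and 34.7% of their variation between slides. For Ptpn11 and Map2k2 these shares were 2.02% and 0.939%. Without the 3 arrays of atypical sex-linked levels the Map2k1 slide difference was as large, at 0.64, but missed the threshold (adjusted p = 0.0785, unadjusted p = 5.56e-05), as did every other gene in that fit.

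**Figure D4:**
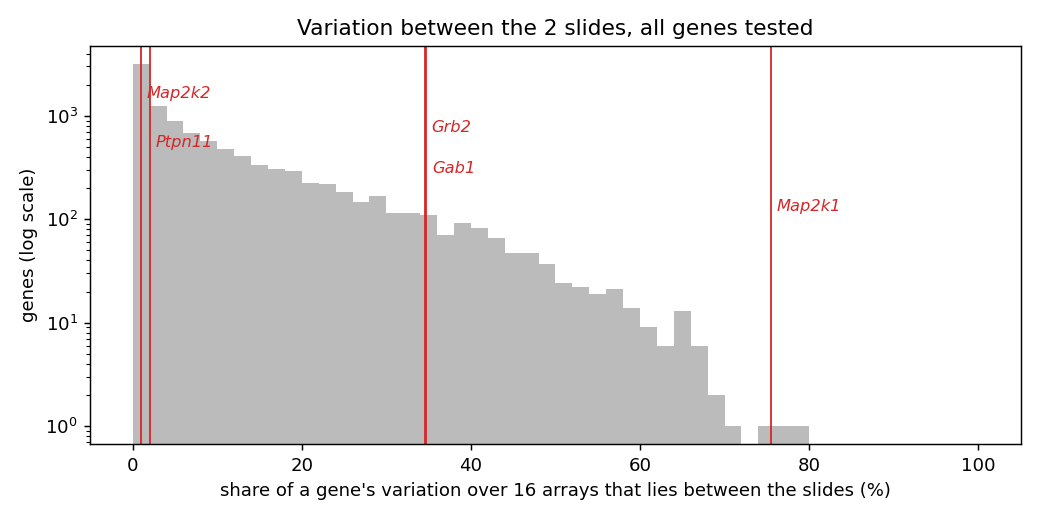
Histogram of the share of each gene's variation over 16 arrays that lies between the 2 slides (x axis, percent; y axis, number of genes on a log scale), with red lines at the 5 tested cascade genes. Map2k1 at 75.5% stands at the far end of all 10232 genes, Grb2 and Gab1 lie near 35% at 34.6% and 34.7%, and Map2k2 and Ptpn11 lie at 0.939% and 2.02%.

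The members also differed in how steady they were within a group. Read by its brightest probe, ILMN_3001598, Ptpn11 had a within-group SD of 0.118 on the log2 scale, and 2.31% of all genes had a smaller one. Map2k1 had 0.389, with 89.2% of genes below it, and Gab1, Map2k2 and Grb2 lay near the median of all genes (0.242) at 0.223, 0.244 and 0.218. In the model without slide, ILMN_3001598 was thus measured with an SE of 0.12 per difference between groups, and Map2k1 with 0.24. The mean level of ILMN_3001598 exceeded that of 98.5% of genes. The dimmer ILMN_2743723 had an SE of 0.15 and SDs from 0.155 to 0.247 over the groups. For ILMN_1245874 the SE was 0.12 and the SDs ran from 0.0649 to 0.165. All within-group SDs include the difference between slides, where 75.5% of the variation of Map2k1 lay. With slide as a block the Mek1gof minus control interval of Map2k1 was -0.44 to 0.13, beside -0.17 to 0.32 for Ptpn11.

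The members did not move as a block over the arrays. After each slide's mean was subtracted, Pearson r over the 16 arrays between the probes of different members lay between -0.50, for Map2k2 ILMN_2884050 with Gab1, and 0.55, for Ptpn11 ILMN_2743723 with Gab1. Map2k1 with Map2k2 ILMN_1258682, the paralogous pair of ERK kinases, gave -0.14. The genes most like Ptpn11 by this measure were Slc1a4 (r = 0.79, Spearman rho = 0.72), a neutral amino acid transporter gene, Cox20 (r = 0.78, rho = 0.64), an assembly factor of cytochrome oxidase, and Krt84 (r = 0.77, rho = 0.56), a hair and nail keratin. Those most like Map2k1 were Pja2 (r = 0.87, rho = 0.77), a ubiquitin ligase gene, Osbpl8 (r = 0.83, rho = 0.85), a lipid transfer protein gene, and Atp10d (r = 0.83, rho = 0.76), a phospholipid flippase gene. These are the 3 highest values over all other genes tested, so they only describe the arrays. When slide means were not subtracted, the 3 genes ranked 5, 110 and 6 for Ptpn11 and 166, 29 and 1039 for Map2k1.

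Around the members, 80 further genes of the pathway on 8 fixed lists were tested, and few passed the threshold. In Shp2lof against control 0 were higher and 1 lower (1.25% of the 80, against 2.55% of all genes), in Mek1gof 1 was higher and 0 lower (1.25% against 0.508%), and in Double 0 were higher and 2 lower (2.5% against 3.88%). Over all genes 1.51% were higher and 1.05% lower with Shp2lof, 0.342% and 0.166% with Mek1gof, and 1.84% and 2.04% with both alleles. In Double against Shp2lof, Double against Mek1gof and the interaction limma passed 0 of the 80, with 15%, 8.75% and 7.5% of them below an unadjusted p of 0.05, where the shares of all genes were 12.8%, 9.85% and 7.17%. Against control these unadjusted shares of the 80 were 15% in Shp2lof (15.7% of all genes), 16.2% in Mek1gof (9.54%) and 20% in Double (20.8%), so the share in Mek1gof skin lay above that of all genes. The genes past the threshold were Irs2, Etv4 and Ntrk2.

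Of 10 adaptors and docking proteins 1 fell and 9 did not pass, both in Shp2lof and in Double skin. It was Irs2, the insulin receptor substrate that docks signalling proteins below the insulin and IGF1 receptors. Irs2 read 7.49, 8.19, 7.72 and 7.83 on the control arrays, 7.07, 6.93, 6.84 and 7.13 on the Shp2lof arrays, 7.5, 6.63, 7.27 and 6.94 on the Mek1gof arrays and 7.53, 6.76, 6.95 and 7.07 on the Double arrays. All Shp2lof arrays lay below all control arrays, while control 1 was about level with the first array of Mek1gof and of Double. Irs2 differed from control by -0.81 in Shp2lof (1.76-fold lower, adjusted p = 0.0325) and by -0.73 in Double (1.66-fold lower, adjusted p = 0.0458). The Mek1gof difference, -0.72, did not pass (adjusted p = 0.133).

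The Irs2 calls rested on several arrays. In Shp2lof the call was lost without any 1 of control 2, control 3, control 4 or the 4 Shp2lof arrays (adjusted p at most 0.128), and in Double without any 1 of control 2, 3 or 4 or Double 2, 3 or 4 (at most 0.149), and both also without the 3 arrays of atypical sex-linked levels (0.0532 and 0.0715). Over all alternatives the differences lay between -0.92 and -0.57, and adjusted p between 0.0113 and 0.272 in Shp2lof and between 0.0183 and 0.247 in Double. Beside it, the summed level of 5 fibroblast markers ran from 14.9 to 15.3 in control and from 13.9 to 14.6 in Shp2lof on the log2 scale, with 2 of the 5 lower by limma. The 2 tested Schwann cell markers summed to 11.3 to 11.7 in control and 10.3 to 11.1 in Shp2lof, with 0 of 2 past the threshold. The 5 adipocyte markers overlapped, at 13.7 to 14.3 and 13.5 to 14.2. In Double skin 7 of 8 skeletal muscle markers were lower than in control (median difference -1.37). The part of these cell types in the Irs2 differences was not tested.

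Of 15 ERK output and feedback genes 1 rose in Mek1gof skin and 14 did not pass, with a list median of -0.11 beside 0.02 over all genes. It was Etv4, an ETS transcription factor gene that rises when FGF receptors and ERK signal. Etv4 read 7.55, 6.67, 6.64 and 6.79 on the control arrays, 7.22, 7.09, 6.57 and 7.0 on the Shp2lof arrays, 7.79, 8.08, 7.85 and 7.78 on the Mek1gof arrays and 7.40, 7.93, 7.61 and 7.30 on the Double arrays. Every Mek1gof array lay above every control array and every Shp2lof array. The difference from control was 0.96 in Mek1gof (1.95-fold, adjusted p = 0.0343), 0.65 in Double (adjusted p = 0.0744, and 0.0452 with slide as a block) and 0.05 in Shp2lof (adjusted p = 0.934).

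For the effect of Shp2 loss beside the Mek1 allele, Double minus Mek1gof was -0.32 for Etv4 (interval -0.73 to 0.10, adjusted p = 0.609) and the interaction at -0.37 (adjusted p = 0.89). The Mek1gof call was lost without any 1 of control 2, 3 or 4 or of the 4 Mek1gof arrays (adjusted p at most 0.148) and without the 3 arrays of atypical sex-linked levels (adjusted p = 0.149), with the difference between 0.58 and 1.18 and adjusted p between 0.00607 and 0.262 over all alternatives. Beside it, the summed level of the 2 tested Schwann cell markers was 11.3 to 11.7 in control and 11.1 to 12.3 in Mek1gof, and its part in the Etv4 difference was not tested.

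Of 9 receptors that feed the cascade 1 fell in Double skin and 8 did not pass, with a median of -0.24 beside 0.03 over all genes. It was Ntrk2, the receptor for the neurotrophin BDNF, which read 7.36, 7.81, 7.59 and 7.73 on the control arrays, 6.84, 6.68, 7.43 and 6.43 on the Shp2lof arrays, 6.73, 7.36, 7.34 and 7.09 on the Mek1gof arrays and 6.98, 6.72, 6.37 and 7.22 on the Double arrays. Every Double array lay below every control array, and the difference was -0.80 (1.74-fold lower, adjusted p = 0.0443). The Shp2lof difference from control was of like size but did not pass (-0.77, adjusted p = 0.0658), and Double minus Shp2lof was -0.03 (interval -0.48 to 0.43, adjusted p = 0.98), so Ntrk2 was not shown to differ between Double and Shp2lof skin. The call was lost without any 1 of the 4 control arrays, Double 2 or Double 3 (adjusted p at most 0.13, over all alternatives 0.0287 to 0.153), and with the mean of the gene's probes the difference was -0.42 (adjusted p = 0.153). Another kept Ntrk2 probe read -0.04 (adjusted p = 0.951), so the direction rests on 1 probe. That other probe was detected on only 8 of 16 arrays and lay near background, so its reading says little about the gene. Beside it, 7 of 8 skeletal muscle markers were lower in Double skin, with summed levels of 15.5 to 16.2 in control and 14.1 to 15.6 in Double, and their part was not tested.

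The remaining lists had 0 members past the threshold against control, by limma. Of 11 further Raf, MEK and ERK kinases and their scaffolds the lowest p belonged to Ywhaz, a 14-3-3 protein gene. Its difference was 0.37 in Shp2lof (adjusted p = 0.155), where its other probe, detected on 12 of 16 arrays, read -0.03. Of 9 Ras proteins and exchange factors the gene with the lowest p was Rap1b, a Ras-like GTPase gene, at 0.35 in Shp2lof (adjusted p = 0.27). Of 6 Ras GTPase-activating proteins it was Rasa1, which switches Ras off, at -0.42 in Mek1gof (adjusted p = 0.356). The 4 ERK-activated kinases had a median of -0.27 in Shp2lof skin, and their lowest p was that of Rps6ka5 in the interaction (0.64, adjusted p = 0.476). This value was 0.95 on slide 1 and 0.34 on slide 2. Rps6ka5 lay near background, with group means from 5.26 to 5.65 and detection on 3 of 4 Shp2lof arrays. Its other probe was detected on 0 arrays. Of 16 genes of other MAP kinase branches the lowest p was that of Map3k3, at -0.40 in Double (adjusted p = 0.0776).

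Egr2 (Krox20), whose promoter drives the Cre, had a lower mean in each mutant group than in control (10.22), with 9.74 in Shp2lof, 9.96 in Mek1gof and 9.50 in Double. The Double difference was -0.72 (adjusted p = 0.0507, and 0.0442 with slide as a block, limma). Shp2lof differed by -0.48 (adjusted p = 0.239) and Mek1gof by -0.26 (adjusted p = 0.736). The Double difference was -0.26 on slide 1 and -1.17 on slide 2, and that of Mek1gof was 0.26 and -0.78. These contrasts between slides were not tested, and in the Mek1gof arrays slide went with the sex-linked levels. The interaction for Egr2 was 0.03 (adjusted p = 0.993, limma).

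**Figure D5:**
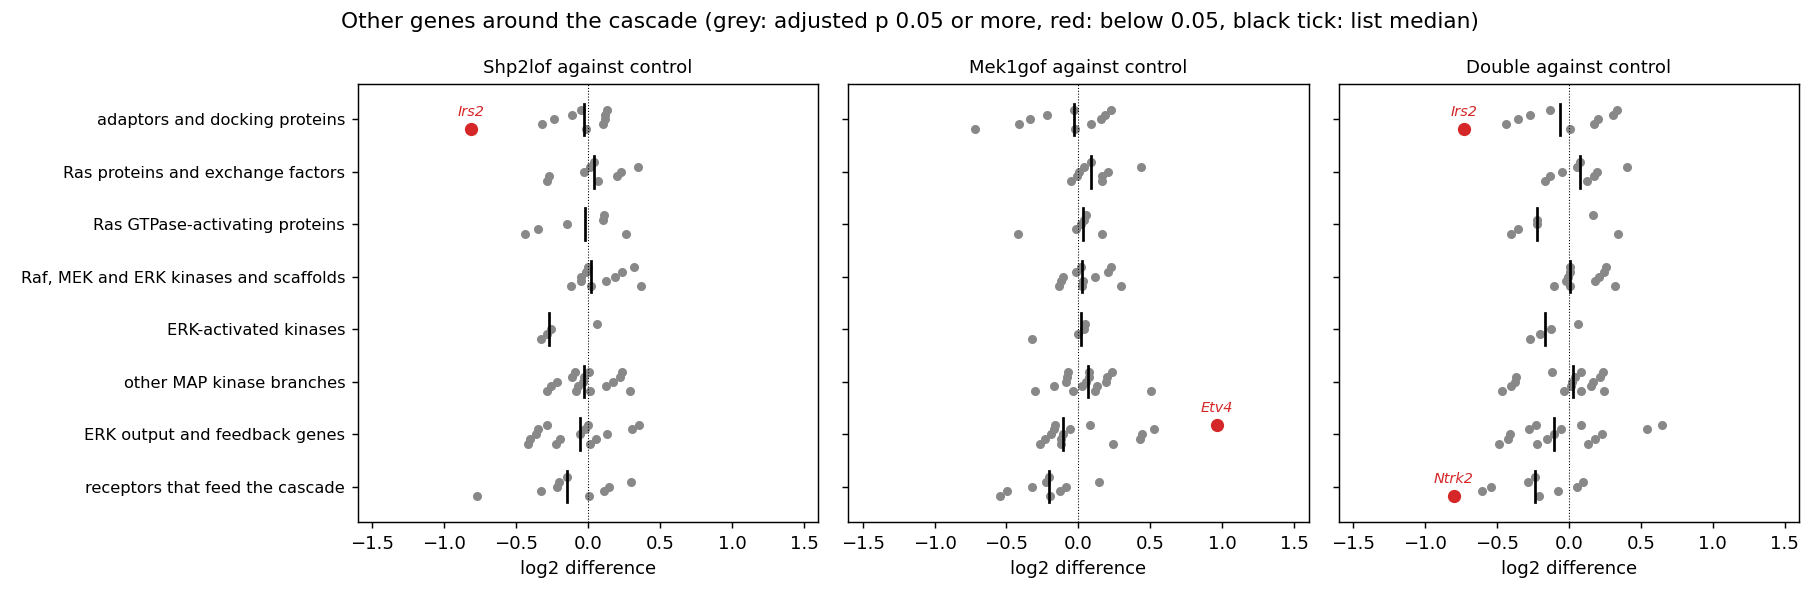
Log2 differences from control (x axis) of the 80 tested genes on the 8 lists around the cascade (rows) in Shp2lof, Mek1gof and Double skin, with red points for adjusted p below 0.05, grey points for the rest and a black tick at each list's median. Irs2 at -0.81 and -0.73, Etv4 at 0.96 and Ntrk2 at -0.80 are the red points.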

How the data were processed

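The deposited table gives the mean bead intensity of 25697 probes on 16 arrays, as a linear signal, and beside each a deposited detection p-value against negative control beads; the submitters' processing notes name GenomeStudio. Array medians ran from 71.3 to 95.9, so the deposited intensity values were not normalized. The neqc function (limma 3.58.1, R 4.3.3) subtracted background and made the arrays' quantiles equal, with an offset of 16. Probes were kept at a detection p-value below 0.05 on at least 4 arrays (14631 probes). Symbols came from the platform annotation, updated by Entrez identifier, and the probe with the highest mean stood for a gene, which left 10232 genes. The limma model held the 4 group means over the 16 arrays (12 residual degrees of freedom), and a second model added slide. Intervals are 95% intervals of these fits. Further probes were tested in a fit over all kept probes.

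The members, lists, tests and alternatives were chosen with earlier results of these data known. Named genes were every probe of the 8 members, Egr2, on each further list the genes past the threshold or otherwise the gene with the lowest p, and the 3 genes most correlated with Ptpn11 and with Map2k1. On 10232 genes simulated for Shp2lof against control, changes of 0.5, 1 and 2 on the log2 scale were set in 80, 80 and 40 genes. They were recovered for 28.8%, 78.8% and 100% of these, with 5 false among 131 calls. The simulated noise was normal and independent between genes and arrays, with no slide effect. These figures therefore do not give the recovery or the error rate of the real arrays. The number of arrays limits the precision. Figures came from matplotlib 3.10.9 (Python 3.11.15). Of the Schwann cell list 2 of 7 markers were tested. The fixed cell type lists not mentioned in the results are macrophage and leukocyte (2 of 7 tested), melanocyte (5 of 5), endothelial (4 of 5) and erythroid (2 of 4), none with a marker past the threshold.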

Additional observations from a re-analysis of the deposited data

How the results depend on the processing

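The count of cascade genes past the threshold stayed at 0 of 5 in all 7 tests between groups under every alternative run: other normalizations and offsets, unnormalized signals, no or a stricter detection filter, the mean of a gene's probes, a probe-level fit, fits on the compared groups, weighted arrays, a block for slide or for replicate number, single slides, each array left out, and, added after the data had been seen, without 3 arrays of atypical sex-linked levels. Over 695 such values, with those of the F test left out, the lowest adjusted p was 0.123 (Gab1 in Mek1gof, slide 2 alone). Of these uncalled values 79 changed sign. For slide 2 against slide 1 the count of 1 became 2 with signals as deposited, where Grb2 passed (0.33, adjusted p = 0.0156), and 0 without the 3 arrays; leaving out 1 array kept it at 1. The Map2k1 slide difference ran from 0.41 to 0.65. Nothing in the labels pairs the samples, and not every same-numbered pair correlated over 0.1 (9 of 24 did, from -0.23 to 0.38), so the reported values come without a replicate block. The median was 0.06, against -0.01 for other numbers on the same slide, and 10 of 16 arrays matched best with their own number, a hint of pairing from the data only. With the replicate block the count of members stayed at 0, and all genes past the threshold went from 261, 52 and 397 to 284, 85 and 464 in Shp2lof, Mek1gof and Double. Over all alternatives these 3 counts ranged from 108 to 463, 15 to 193 and 136 to 652. Those of Double against Shp2lof (99), Double against Mek1gof (29), the interaction (9), the F test (452) and slide (96) ranged from 56 to 290, 1 to 192, 5 to 36, 257 to 691 and 0 to 1950. The count for slide of 0, without the 3 arrays, is by limma. Signals near background limit Map2k1, Grb2, Rps6ka5, ILMN_2884050 and the other kept Ntrk2 probe.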
